A study of Mus musculus with 2 samples.

Results

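The NRF2 antioxidant genes of mouse lung were compared between a lung RNA library of mice given an adenovirus carrying interleukin 17B (Adv-IL-17B) and one of mice given the empty adenovirus (Adv-EV). The members were the rows of the deposited expression table with the symbols Nfe2l2, Nqo1, Gclc, Gclm, Srxn1, Txnrd1, Slc7a11, Prdx1, Gpx2 and Gsr, which made 10 genes of 17943. All 10 were found, and all 10 passed the filter on low values, a mean of at least 0.5 FPKM over both libraries. FPKM is a fragment count corrected for the length of the transcript and the size of the library, so levels of different genes can be set side by side.

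Both groups were wild-type C57BL/6 mice, a common inbred strain, aged 6 to 8 weeks, and both received virus through the nose for 3 days before whole lung was taken. Adenovirus serves here as a carrier that brings a gene into airway and lung cells, and no lung without virus was analysed. Each group is 1 library, the design text speaks of triplicates, and the sources used here do not say whether a library pools several mice. With 1 library per group no difference has a replicate check, and none was tested. Il17b, the delivered gene, stood at 93.2 FPKM in Adv-IL-17B and was listed at 0 in Adv-EV, where a count of 0 allows up to 0.784 FPKM. The lung surfactant gene Sftpc stood at 11922 FPKM in Adv-IL-17B and 20844 FPKM in Adv-EV, and the club cell secretory gene Scgb1a1 at 26446 FPKM in Adv-IL-17B and 37109 FPKM in Adv-EV.

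NRF2, the transcription factor encoded by Nfe2l2, is held at low protein level by KEAP1, which delivers it to a CUL3 ubiquitin ligase for destruction. Oxidants and electrophiles modify cysteines of KEAP1, NRF2 then builds up, pairs with a small MAF protein and binds antioxidant response elements in its target genes. The targets make and recycle glutathione, run the thioredoxin and peroxiredoxin cycles and detoxify quinones. In lung the pathway is known for protection against oxidant injury, and NRF2 activity is controlled mostly through protein stability, which RNA levels do not report.

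The response element itself was looked for in the promoters, because it is what the members are known to share. Windows of 300 bases, 250 before to 50 after an annotated start, were taken from RefSeq on GRCm38.p6, the assembly of mm10. A gene with several annotated starts could have several windows. The core of the element was searched as TGACNNNGC on both strands, and a looser form as TGANNNNGC, which contains the core. Of the 10 members, 8 matched the RefSeq table, with 10 windows between them, and Gclc and Gsr were not in it. At least 1 core stood in the windows of 5 of the 8 matched members, against 14.0% of 27025 genes. The looser form stood in 7 of 8, against 45.0% of genes. A match is a description of letters and not a binding site, and no match says only that the letters are not in that window.

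Prdx1 and Srxn1 encode a peroxiredoxin and the enzyme that repairs it, and their windows are shown whole, 5′ to 3′ on the strand of the gene. Both genes lie on the plus strand. The Prdx1 window is chr4:116685349-116685648 and the Srxn1 window is chr2:152105274-152105573. Capitals mark every match to either form.
Prdx1: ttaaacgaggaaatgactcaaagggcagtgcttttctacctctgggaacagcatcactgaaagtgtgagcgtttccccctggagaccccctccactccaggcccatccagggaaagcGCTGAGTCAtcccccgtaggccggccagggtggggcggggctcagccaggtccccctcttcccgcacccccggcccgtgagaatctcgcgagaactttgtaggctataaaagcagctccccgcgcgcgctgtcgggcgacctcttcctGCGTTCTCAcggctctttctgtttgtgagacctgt
Srxn1: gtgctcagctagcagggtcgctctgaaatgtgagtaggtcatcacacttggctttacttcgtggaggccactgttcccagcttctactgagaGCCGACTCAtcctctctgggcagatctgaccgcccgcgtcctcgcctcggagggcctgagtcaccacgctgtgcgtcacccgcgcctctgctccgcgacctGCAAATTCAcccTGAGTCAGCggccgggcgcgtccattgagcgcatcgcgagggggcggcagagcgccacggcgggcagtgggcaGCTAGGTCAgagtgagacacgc
The capitals near the middle of the Prdx1 window, at bases 118 to 126, read TGACTCAGC on the opposite strand. Srxn1 held 4 matches, 1 of them to the core, and the one at bases 206 to 214 reads TGAGTCAGC on the strand of the gene.

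Nfe2l2, Gclm and Txnrd1 each held 1 core match, shown here in capitals with its 5 neighbouring bases on each side on the strand of the gene. They lie at chr2:75704895-75704903 on the minus strand, and at chr3:122245423-122245431 and chr10:82859114-82859122 on the plus strand.
Nfe2l2: ccaccTGACTCCGCcatgc
Gclm: cgggcGCACCGTCAactct
Txnrd1: tttttGCTTTGTCAttctg
Txnrd1 had windows at several starts, and its core match lies in the window chr10:82858956-82859255. The Txnrd1 window at the start of the gene, chr10:82833701-82834000, held neither form. Its window at chr10:82860091-82860390 held the looser form only. The Slc7a11 and Gpx2 windows held the looser form only, and the Nqo1 window held neither.

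The 10 members lay inside the 2-fold limits, as did 93.4% of the 15056 measured genes, so their count past the limits is near the background. By a size rule of 2-fold 0 of 10 were higher in Adv-IL-17B, against 3.95% of measured genes, and 0 of 10 were lower, against 2.68%. Here a log2 ratio is the difference of log2(FPKM + 0.1) between Adv-IL-17B and Adv-EV, positive where Adv-IL-17B is higher. The median log2 ratio of the 10 was 0.14, beside -0.01 for all measured genes, whose middle range from the lower to the upper quartile ran from -0.24 to 0.23. Ratios above 0 were found for 6 members (Slc7a11, Gclc, Gclm, Gsr, Prdx1 and Srxn1), against 48.6% of measured genes. Ratios below 0 were found for 4 (Nfe2l2, Txnrd1, Gpx2 and Nqo1), against 50.8%, though Txnrd1 turned to 0.0022 when ratios were centred on the median gene. Summed over the 10 genes the level was 604 FPKM in Adv-IL-17B and 544 FPKM in Adv-EV, and without Prdx1, the most abundant, it was 334 FPKM in Adv-IL-17B and 310 FPKM in Adv-EV.

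The order of levels was the same in both libraries for all 10 genes. It ran from Prdx1 through Nfe2l2, Gclc, Slc7a11, Gsr, Txnrd1, Gpx2, Gclm and Srxn1 to Nqo1. The highest gene stood 129-fold above the lowest in Adv-IL-17B and 61.0-fold in Adv-EV. Both folds are rough, since the lowest gene, Nqo1, rested on about 18 fragments in Adv-IL-17B and 33 in Adv-EV. Neighbours were closest for Gsr and Txnrd1 in Adv-EV, where Gsr stood at 34.8 FPKM and Txnrd1 at 34.6 FPKM, on about 514 and 691 fragments of transcripts of unlike length.

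**Figure D1:**
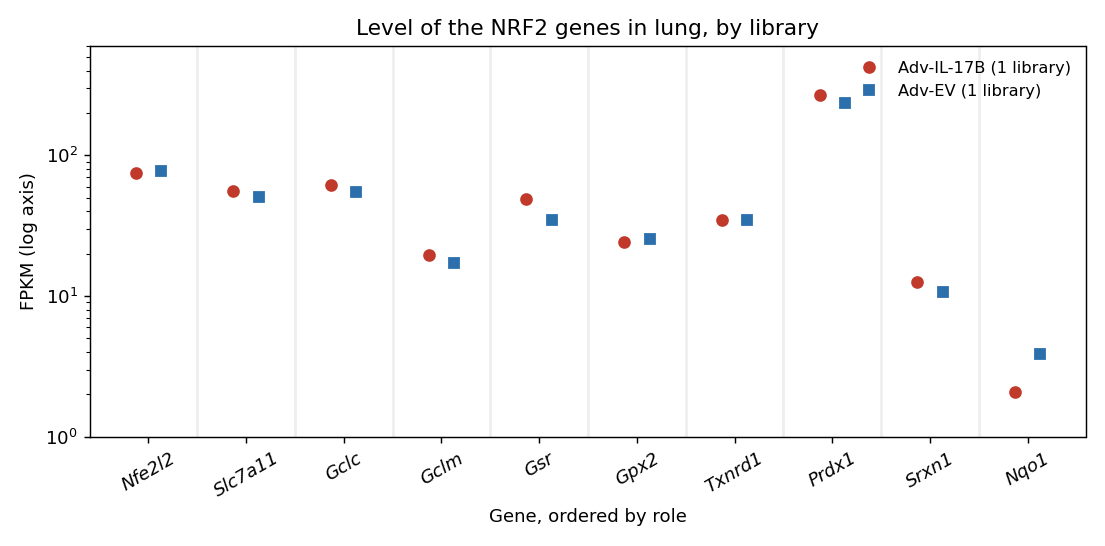
FPKM (log axis) of each of the 10 NRF2 genes in the Adv-IL-17B library (circles) and the Adv-EV library (squares), 1 library each, with genes ordered by role. The pairs of points lie close together for most genes, Gsr is higher in Adv-IL-17B (48.7 FPKM in Adv-IL-17B, 34.8 in Adv-EV) and Nqo1 lower (2.09 FPKM in Adv-IL-17B, 3.84 in Adv-EV).

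The one error that could be given for these ratios is counting error. About 5520000 fragments per library were estimated from the steps in low FPKM values, and each ratio carries an exact 95% interval from the estimated fragments, which covers counting error only and not differences between mice or preparations. The interval lay wholly above equal levels for 5 members (Gclc, Gclm, Slc7a11, Prdx1 and Gsr), against 19.1% of 12728 genes with at least 50 fragments over both libraries. It lay wholly below for 1 (Nqo1), against 18.1%. Intervals narrow as fragments rise, and both shares include genes down to 50 fragments. The shares were not matched to the members in depth, so counts and shares are not strictly comparable. When the libraries were scaled to equal sums without their 10 most abundant genes, all member ratios moved by -0.08 on the log2 scale, and the first count was then 2 (Prdx1 and Gsr).

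**Figure D2:**
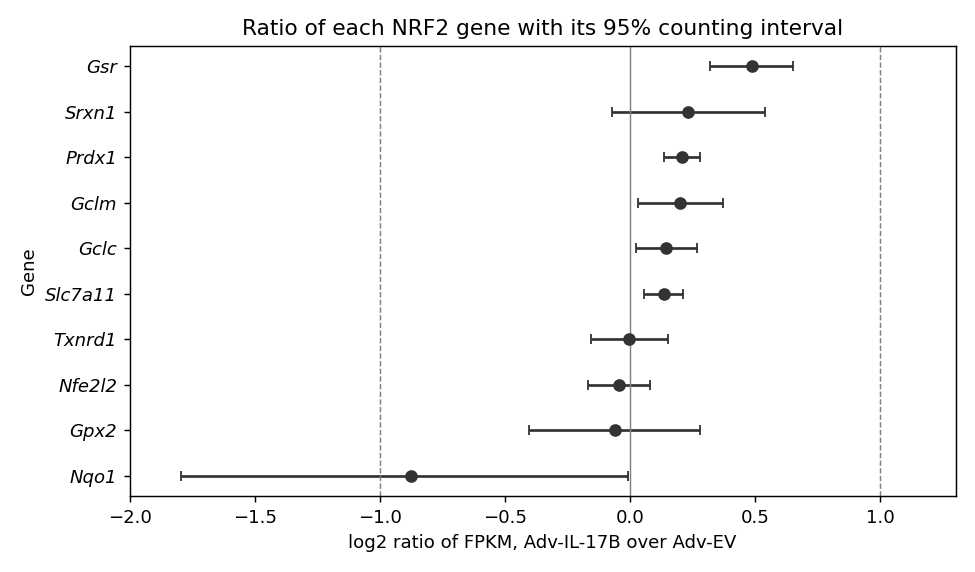
log2 ratio of plain FPKM, Adv-IL-17B over Adv-EV, for each NRF2 gene (points) with its exact 95% counting interval (bars), and dashed lines at 2-fold. Gsr has the highest ratio, 1.40-fold, Nqo1 the lowest, 0.544-fold, with the widest interval, and no point reaches a dashed line.

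Nfe2l2 itself, the regulator, lies on chromosome 2 (minus strand), from 75675513 to 75704641 (coordinates here and below are of GRCm38, the assembly of mm10, from GENCODE M21). It stood at 75.2 FPKM in Adv-IL-17B and 77.6 FPKM in Adv-EV, the second highest level of the 10 genes in both. The ratio was 0.969, with a counting interval of 0.889 to 1.06. These levels rested on about 1028 fragments in Adv-IL-17B and 1061 in Adv-EV.

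Of the genes of glutathione supply, the members Slc7a11, Gclc and Gclm had ratios a little above 1. The 27 other glutathione and thioredoxin genes described below lay on both sides. Of these, 14 had a log2 ratio above 0 and 12, Gss among them, below 0, against 48.6% and 50.8% of measured genes. Ratios at least as high as those of the 3 members were common. They were found in 34.0% of measured genes for Slc7a11, 33.1% for Gclc and 27.9% for Gclm. Under the scaling without the 10 most abundant genes the intervals of all 3 members included equal levels. Slc7a11, the cystine importer that brings in the limiting amino acid for glutathione, lies on chromosome 3 from 49892526 to 50443614 on the minus strand. It stood at 55.4 FPKM in Adv-IL-17B and 50.5 FPKM in Adv-EV, a ratio of 1.10 with an interval of 1.04 to 1.16. Gclc, the catalytic subunit of the ligase that begins glutathione synthesis, lies on chromosome 9 (plus strand), from 77754535 to 77794485. Its level was 61.1 FPKM in Adv-IL-17B and 55.3 FPKM in Adv-EV, a ratio of 1.10 (interval 1.02 to 1.20). Gclm, the modifier subunit of the same ligase, lies on chromosome 3 from 122245557 to 122270732 on the plus strand. It stood at 19.6 FPKM in Adv-IL-17B and 17.1 FPKM in Adv-EV, a ratio of 1.15 (interval 1.02 to 1.29). Exons of an opposite-strand transcript and of a pseudogene overlap those of Gclm in the annotation, and strand handling is not given, so their reads cannot be told apart. The proportions among the 3 genes were close in the libraries. The Gclc to Gclm ratio was 3.11 in Adv-IL-17B and 3.24 in Adv-EV, and the Slc7a11 to Gclc ratio was 0.906 in Adv-IL-17B and 0.912 in Adv-EV.

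Gsr had the highest ratio of the 10. It encodes glutathione reductase, which returns oxidised glutathione to its reduced form with NADPH, and lies on chromosome 8 (plus strand), from 33652523 to 33698163. Its level was 48.7 FPKM in Adv-IL-17B and 34.8 FPKM in Adv-EV, a ratio of 1.40 (interval 1.25 to 1.57, about 719 fragments in Adv-IL-17B and 514 in Adv-EV). Of the 15056 measured genes, 12.3% had a log2 ratio at least as high, and of the 3181 measured genes within 2-fold of its mean level, 8.96% had. Gpx2, a glutathione peroxidase of epithelia, lies on chromosome 12 from 76792333 to 76795554 on the minus strand. It stood at 24.3 FPKM in Adv-IL-17B and 25.4 FPKM in Adv-EV, a ratio of 0.958 (interval 0.756 to 1.21).

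In the thioredoxin arm the reductase had nearly equal levels in the libraries. Txnrd1, the cytosolic thioredoxin reductase and a flavoenzyme related to glutathione reductase, lies on chromosome 10 (plus strand), from 82833951 to 82897712. It stood at 34.5 FPKM in Adv-IL-17B and 34.6 FPKM in Adv-EV, a ratio of 0.998 (interval 0.897 to 1.11). Within a library the Gsr level was 1.41 times that of Txnrd1 in Adv-IL-17B and 1.01 times in Adv-EV, which shows unequal ratios of the pair and not which of them moved.

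Prdx1, an abundant peroxiredoxin that reduces hydrogen peroxide with electrons from thioredoxin, lies on chromosome 4 (plus strand), from 116685544 to 116700822. Its level was 271 FPKM in Adv-IL-17B and 234 FPKM in Adv-EV, a ratio of 1.15 (interval 1.10 to 1.21). Srxn1, sulfiredoxin, restores peroxiredoxins whose cysteine has been over-oxidised, and lies on chromosome 2 (plus strand), from 152105516 to 152111376. It stood at 12.6 FPKM in Adv-IL-17B and 10.8 FPKM in Adv-EV, a ratio of 1.17 (interval 0.950 to 1.45). The Prdx1 level was 21.4 times that of Srxn1 in Adv-IL-17B and 21.8 times in Adv-EV.

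Nqo1, the quinone reductase often used to read NRF2 activity, had the lowest level and the lowest ratio. It lies on chromosome 8 (minus strand), from 107388225 to 107403206. It stood at 2.09 FPKM in Adv-IL-17B and 3.84 FPKM in Adv-EV, a ratio of 0.544. The estimate gave about 18 fragments in Adv-IL-17B and 33 in Adv-EV. The counting interval, 0.289 to 0.995, ended just short of equal levels. Of all measured genes 3.81% had a log2 ratio at least as low, and of the 3863 within 2-fold of its mean level 5.13% had. At a size rule of 1.5-fold in place of 2-fold Nqo1 was the 1 member past the limit, on the lower side, where 8.23% of measured genes were lower and 9.46% higher.

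**Figure D3:**
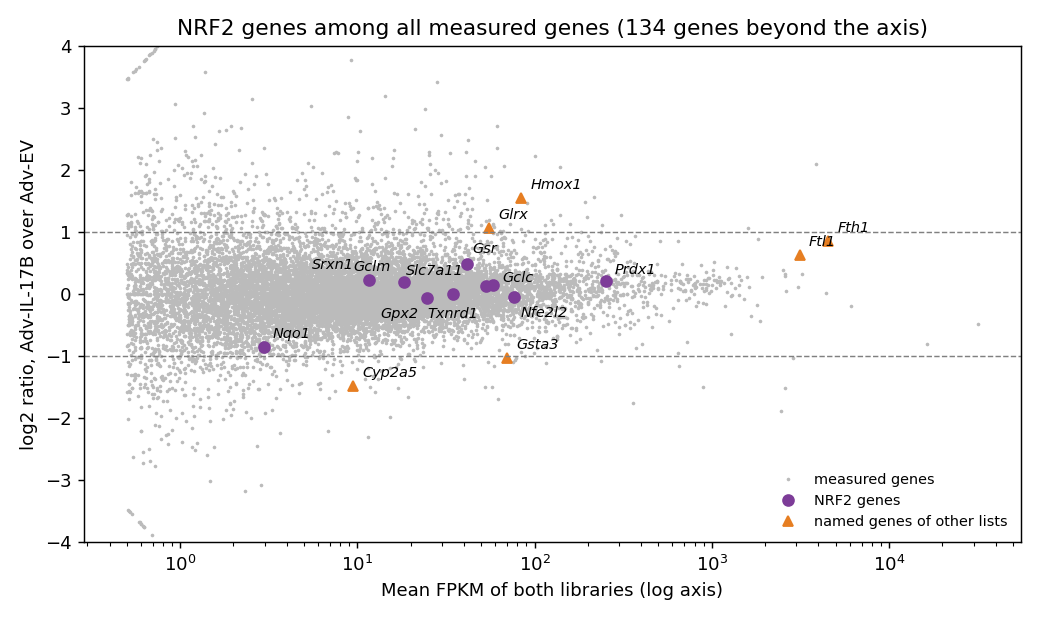
log2 ratio on FPKM + 0.1, Adv-IL-17B over Adv-EV, against mean FPKM (log axis) for all measured genes (grey), with the 10 NRF2 genes as circles, 6 named genes of other lists as triangles, and dashed lines at 2-fold. The circles lie inside the dashed lines, from -0.85 for Nqo1 to 0.48 for Gsr, while Hmox1 and Glrx lie above and Gsta3 and Cyp2a5 below, and 134 other genes lie beyond the vertical axis.

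The 13 genes that control NRF2 or partner with it had a median log2 ratio of 0.11, and all 13 lay inside the 2-fold limits, where 93.4% of measured genes lay. Keap1, which captures NRF2, stood at 32.7 FPKM in Adv-IL-17B and 30.4 FPKM in Adv-EV. Its ligase partners Cul3 (16.9 FPKM in Adv-IL-17B, 17.8 in Adv-EV) and Rbx1 (64.5 FPKM in Adv-IL-17B, 57.5 in Adv-EV) had intervals that included equal levels. So did Bach1, the heme-sensing repressor that competes for the same elements (14.0 FPKM in Adv-IL-17B, 12.3 in Adv-EV), its relative Bach2 (2.11 FPKM in Adv-IL-17B, 2.24 in Adv-EV), and the partners Mafg (19.1 FPKM in Adv-IL-17B, 17.0 in Adv-EV) and Mafk (30.4 FPKM in Adv-IL-17B, 31.8 in Adv-EV). Maff, the third small MAF gene, had the highest ratio of this list, at 24.2 FPKM in Adv-IL-17B and 16.3 FPKM in Adv-EV, a ratio of 1.48 (interval 1.22 to 1.80). Sqstm1, which encodes the autophagy receptor p62 that binds KEAP1, stood at 274 FPKM in Adv-IL-17B and 233 FPKM in Adv-EV (ratio 1.18, interval 1.12 to 1.23). The related factors Nfe2l1 (82.8 FPKM in Adv-IL-17B, 88.4 in Adv-EV) and Nfe2l3 (2.18 FPKM in Adv-IL-17B, 1.83 in Adv-EV), the ligase adaptor gene Btrc (4.91 FPKM in Adv-IL-17B, 5.46 in Adv-EV) and the kinase gene Gsk3b (9.47 FPKM in Adv-IL-17B, 11.1 in Adv-EV) completed the list. Over the 13 genes the counting interval lay above equal levels for 2, Maff and Sqstm1, and below for 2, Nfe2l1 and Gsk3b. Of genes with at least 50 fragments over both libraries, 19.1% had an interval above and 18.1% below, so these counts are near the background.

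Other genes known as NRF2 targets had log2 ratios from -1.49 to 1.55, beside -0.85 to 0.48 for the 10 members. Of 32 listed genes 30 were in the table and 29 passed the filter, of which 1 was higher and 2 were lower by the 2-fold rule, against 3.95% and 2.68% of all measured genes. The median log2 ratio was 0.10. Hmox1, heme oxygenase, which BACH1 also represses, stood at 126 FPKM in Adv-IL-17B and 42.9 FPKM in Adv-EV, 2.93-fold higher (interval 2.60 to 3.31). The ferritin genes Fth1 (5873 FPKM in Adv-IL-17B, 3237 in Adv-EV, ratio 1.81) and Ftl1 (3826 FPKM in Adv-IL-17B, 2465 in Adv-EV, ratio 1.55) and the biliverdin reductase gene Blvrb (48.7 FPKM in Adv-IL-17B, 26.8 in Adv-EV, ratio 1.81) also stood higher in Adv-IL-17B. Reads of ferritin pseudogenes may be shared with their parent genes. Txn1, thioredoxin, stood at 288 FPKM in Adv-IL-17B and 250 FPKM in Adv-EV, a ratio of 1.15, as for Prdx1.

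The 3 lowest ratios of this list were those of Cyp2a5, Gsta3 and Ephx1. Cyp2a5, a cytochrome P450 with a near-identical neighbour gene that makes its reads uncertain, stood at 4.94 FPKM in Adv-IL-17B and 14.1 FPKM in Adv-EV (ratio 0.352, interval 0.254 to 0.481). Gsta3, a glutathione S-transferase, stood at 45.9 FPKM in Adv-IL-17B and 94.3 FPKM in Adv-EV (ratio 0.487, interval 0.428 to 0.552). Ephx1, epoxide hydrolase, stood at 57.3 FPKM in Adv-IL-17B and 110 FPKM in Adv-EV (ratio 0.522, interval 0.470 to 0.579).

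In the wider glutathione and thioredoxin system 27 of 27 genes were measured, 1 was at least 2-fold higher and 0 were lower, against 3.95% and 2.68% of all measured genes. The median log2 ratio was 0.03, and -0.04 when libraries were scaled to equal sums without the 10 most abundant genes. Glrx, the cytosolic glutaredoxin that uses glutathione, stood at 74.7 FPKM in Adv-IL-17B and 35.8 FPKM in Adv-EV (ratio 2.09, interval 1.80 to 2.43), and that scaling put it inside the limit. Prdx5, a peroxiredoxin (485 FPKM in Adv-IL-17B, 253 in Adv-EV, ratio 1.92), and Msrb1, which repairs oxidised methionine (264 FPKM in Adv-IL-17B, 138 in Adv-EV, ratio 1.92), came next. The lowest ratios were those of Prdx6, a peroxiredoxin that also acts in surfactant lipid turnover (292 FPKM in Adv-IL-17B, 402 in Adv-EV, ratio 0.728), Txnrd3 (4.84 FPKM in Adv-IL-17B, 6.62 in Adv-EV) and Gss (14.3 FPKM in Adv-IL-17B, 19.4 in Adv-EV). Gss, glutathione synthetase, completes the synthesis that Gclc and Gclm begin, and its ratio of 0.738 (interval 0.596 to 0.912) lay on the other side of equal levels from theirs. The abundant peroxidase genes Gpx3 (725 FPKM in Adv-IL-17B, 696 in Adv-EV), Gpx4 (391 FPKM in Adv-IL-17B, 429 in Adv-EV) and Gpx1 (411 FPKM in Adv-IL-17B, 367 in Adv-EV) had ratios from 0.912 to 1.12.

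A further list held 4 superoxide and peroxide enzymes, Sod1, Sod2, Sod3 and Cat. Sod2, the mitochondrial superoxide dismutase and a known NF-kappaB target, stood at 69.1 FPKM in Adv-IL-17B and 38.2 FPKM in Adv-EV (ratio 1.81, interval 1.69 to 1.94). Sod1 (621 FPKM in Adv-IL-17B, 662 in Adv-EV), Sod3 (133 FPKM in Adv-IL-17B, 174 in Adv-EV) and Cat (55.6 FPKM in Adv-IL-17B, 73.9 in Adv-EV) had ratios below 1, and their intervals ended below equal levels. All 4 lay inside the 2-fold limits, as did 93.4% of measured genes. An interval below equal levels was found for 18.1% of genes with at least 50 fragments, a share not matched to these 4 genes in depth.

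**Figure D4:**
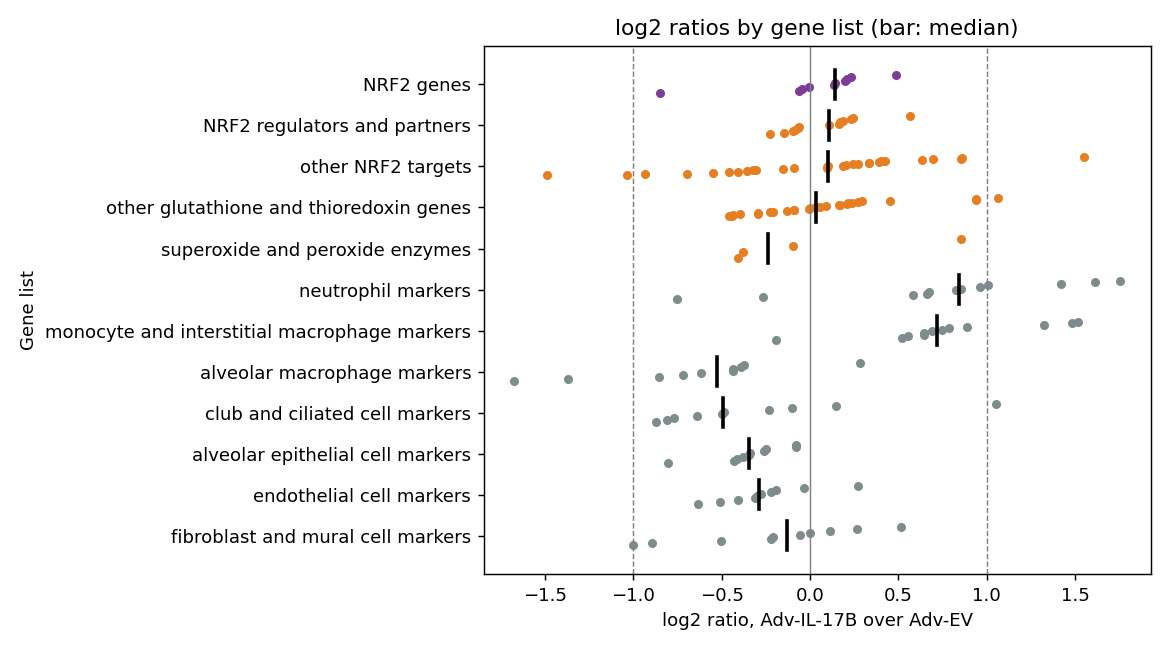
log2 ratios on FPKM + 0.1, Adv-IL-17B over Adv-EV, of the measured genes of each list (points, sorted within a list), with the median as a bar and dashed lines at 2-fold. The NRF2 genes centre on 0.14, the neutrophil markers on 0.84 and the alveolar epithelial markers on -0.34.

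Markers of several cell types differed between the same libraries, and in bulk tissue fewer cells of a type and less RNA per cell cannot be told apart. Of all measured genes 48.6% had a log2 ratio above 0 and 50.8% below. Neutrophil markers were above 0 in 10 of 12, summing to 747 FPKM in Adv-IL-17B and 440 FPKM in Adv-EV. Markers of monocytes and interstitial macrophages were above 0 in 11 of 12. The list of monocytes and interstitial macrophages summed to 7336 FPKM in Adv-IL-17B and 7469 FPKM in Adv-EV, and most of that sum was Lyz2 (5700 FPKM in Adv-IL-17B, 6504 in Adv-EV), which alveolar epithelium also expresses. Without Lyz2 it was 1636 FPKM in Adv-IL-17B and 965 FPKM in Adv-EV. Markers of alveolar macrophages (9 of 10), club and ciliated cells (8 of 10), alveolar epithelium (10 of 10) and endothelium (9 of 10) had log2 ratios below 0. The alveolar macrophage list summed to 330 FPKM in Adv-IL-17B and 485 FPKM in Adv-EV. Most of that sum was Chil3 (154 FPKM in Adv-IL-17B, 208 in Adv-EV) and Car4 (81.6 FPKM in Adv-IL-17B, 148 in Adv-EV). Which cells these reads came from was not tested. In this list the interval lay below equal levels for 6 genes, above for Ctsk, and included them for Siglecf, Fabp4 and Pparg. The club and ciliated list summed to 29049 FPKM in Adv-IL-17B and 41181 FPKM in Adv-EV. Most of the club and ciliated sum was Scgb1a1, without which it was 2603 FPKM in Adv-IL-17B and 4072 FPKM in Adv-EV. This list joins club and ciliated cells, which were not separated. Its genes above 0 were Foxj1 (97.2 FPKM in Adv-IL-17B, 87.7 in Adv-EV) and Bpifa1 (51.4 FPKM in Adv-IL-17B, 24.7 in Adv-EV). The intervals of Ccdc113 and Dynlrb2 included equal levels, and those of the other 6 genes lay below. The alveolar epithelial list summed to 17665 FPKM in Adv-IL-17B and 27879 FPKM in Adv-EV, mostly Sftpc, without which it was 5742 FPKM in Adv-IL-17B and 7035 FPKM in Adv-EV. The endothelial list summed to 1432 FPKM in Adv-IL-17B and 1754 FPKM in Adv-EV. Fibroblast and mural markers were below 0 in 6 of 10, at 720 FPKM in Adv-IL-17B and 729 FPKM in Adv-EV. No marker of these lists was at 0 in either library, and their part in the values of the NRF2 genes was not tested.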

How the data were processed

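Whole lung RNA was sequenced, and the deposited table gives 1 FPKM column per group, per the file headers, rounded to 2 decimals by the authors. Bowtie2, HISAT and the build mm10 are named in the submitters' processing notes without versions. The step to FPKM, the annotation, filters and strand handling are not stated in those sources. Because FPKM is relative to a library total, very abundant genes can move the values of the rest.

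Samples were grouped by title. log2(FPKM + 0.1) was compared as Adv-IL-17B minus Adv-EV over the 15056 genes that averaged 0.5 FPKM or more, and genes were counted at 2-fold. The pseudocount understates differences of low genes, so printed ratios are plain FPKM ratios. The members and lists were chosen with earlier results of these data known. Named were all members, all regulators and the 4 superoxide and peroxide enzymes. From the other 2 pathway lists came genes past 2-fold, the 3 highest and 3 lowest ratios and the 3 highest means. No likeness to a member was ranked, since 2 libraries give 1 ratio per gene.

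Depth was estimated from steps in the low values of genes with 1 transcript of 600 to 3000 bp (GENCODE M21 lengths, found for 98.3% of genes). In both libraries 1 fragment was worth 0.181 FPKM per kb, and 81.3% (Adv-IL-17B) and 81.5% (Adv-EV) of low values came within 0.2 of whole fragments. Fragments summed over genes came to 109% of that depth, so it is rough, and intervals (Clopper-Pearson) and floors (3 fragments) share its error and cover counting error only. Where a gene had several transcripts, its longest gave the length. The step estimate and the log2 ratios were tested on simulated data built with the same transcript lengths. The counting intervals and errors in those lengths were not tested. Protein sequences were not used here. Python 3.11.15, numpy 2.4.6, pandas 2.3.3, scipy 1.17.1 and matplotlib 3.10.9 were used.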

Additional observations from a re-analysis of the deposited data

How the results depend on the processing

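The alternatives were a pseudocount of 1 or none, no filter or a mean of at least 5 FPKM, centring on the median gene, both rescalings to equal sums, and a size rule of 1.5-fold. None of them put a member past 2-fold. At 1.5-fold 0 members were higher and 1 (Nqo1) was lower. Across the settings the median log2 ratio of the members ran from 0.06 to 0.14, Gsr from 0.41 to 0.49 and Nqo1 from -0.93 to -0.65, while Txnrd1 ran from -0.08 to 0.0022 and so changed sign. Nqo1 has no value at a mean of at least 5 FPKM. Scaling to equal sums without the 10 most abundant genes put Prdx1 at 0.13, beside 0.21, and the median of all genes at -0.08, since this scaling adds the same shift to every gene. The counts over all genes depend on low values, with 595 higher and 404 lower at the settings used in the report. They were 352 higher and 176 lower with a pseudocount of 1, 1148 and 1012 without a filter, 224 and 75 at a mean of at least 5 FPKM, and 1425 and 1239 at 1.5-fold. For the other lists 19 recomputed values went outside a tolerance of 1.5 times for a count, or the counting interval of the middle gene for a median, and 234 stayed within it, though not at the same value. Within it the median of the wider glutathione and thioredoxin genes changed sign, from -0.04 to 0.04 over the settings. No paired analysis was possible because each group has 1 library. Depth limits Nqo1 most, at 51 fragments over both libraries.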

Other observations

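Families within the list of other NRF2 targets went different ways, and these groupings were chosen after the values were seen. The 5 measured glutathione S-transferase genes of the Gsta and Gstm families, which attach glutathione to electrophiles, all had a log2 ratio below 0, with a median of -0.55, where 50.8% of measured genes were below 0. Gstp1, another S-transferase of the same list, lay on the other side, at 185 FPKM in Adv-IL-17B and 173 FPKM in Adv-EV. Mgst1, a further one, lay below 0, at 188 FPKM in Adv-IL-17B and 241 FPKM in Adv-EV. The 5 Gsta and Gstm genes summed to 334 FPKM in Adv-IL-17B and 484 FPKM in Adv-EV, and reads of these related genes may be split between copies. The counting interval ended below equal levels for 4 of the 5, against 18.1% of genes with at least 50 fragments. That share was not matched in depth. The remaining gene, Gsta2, falls outside it, with about 9 fragments in Adv-IL-17B and 15 in Adv-EV. The 3 measured Abcc genes, which encode export pumps for glutathione conjugates, all had a log2 ratio above 0, as did 48.6% of measured genes, and summed to 29.9 FPKM in Adv-IL-17B and 22.8 FPKM in Adv-EV.

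Of 5 genes that supply NADPH or run the pentose phosphate pathway, 4 had a log2 ratio above 0, against 48.6% of measured genes. Me1 lay below, and the median of the 5 was 0.24, beside an upper quartile of 0.23 over all measured genes. Pgd, which makes NADPH for reductases such as glutathione reductase, stood at 94.5 FPKM in Adv-IL-17B and 75.1 FPKM in Adv-EV. The 4 ferritin and heme degradation genes had a median log2 ratio of 0.86, beside the same upper quartile of 0.23. They summed to 9873 FPKM in Adv-IL-17B and 5772 FPKM in Adv-EV. Almost all of that sum was the ferritin genes Fth1 and Ftl1, so it says little about Hmox1 and Blvrb. Club and alveolar epithelial cells express many S-transferases. In the same libraries the club and ciliated cell list had a median of -0.49 and the alveolar epithelial list of -0.34. The neutrophil list had a median of 0.84 and the monocyte and interstitial macrophage list of 0.72. The part of these cells in the values above was not tested.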
